A study of Homo sapiens and Mus musculus with 21 samples.

Results

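Ribosome-protected fragments were compared between HEK293T cells that lack PCIF1 and wild-type HEK293T cells over all 785 genes of the deposited fragment table. PCIF1 is the cap-associated methyltransferase that puts N6-methyladenosine on a first transcribed adenosine that already carries a 2′-O-methyl group, which gives m6Am. HEK293T is a transformed human embryonic kidney line. The knockout (KO) group held 3 fragment libraries and the wild-type (WT) group held 2, out of 21 libraries in the series, and each had a matched input RNA library. The labels describe no further treatment of either group, and they do not say whether the KO libraries came from 1 clone or several, or from separate cultures. A p-value here therefore speaks of library-to-library variation, and that variation may be no more than technical.

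In ribosome profiling, nuclease digests the mRNA that is not covered by a ribosome, and the short footprints left behind are sequenced. The count of footprints on a gene follows both how much of its mRNA is present and how densely ribosomes sit on it. A first-base m6Am lies next to the cap, where the initiation machinery binds, so footprints are one place where an effect of its loss on translation could be read. The question put to these libraries is thus whether any mRNA carried more or fewer footprints without PCIF1.

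The answer of the counts as a whole was that no single gene could be told apart between KO and WT. With edgeR's quasi-likelihood test, 0 of 785 genes (0.0%) were higher and 0 (0.0%) were lower in KO at an adjusted p under 0.05, and the smallest adjusted p was 0.915. Before adjustment, 16 genes (2.04%) with p under 0.05 were higher and 14 (1.78%) were lower. In 83 genes (10.6%) every KO library lay above both WT libraries, and in 82 (10.4%) every KO library lay below both. The fold change was above 0 in 393 genes (50.1%), and its median over all genes was 0.00 on the log2 scale. All counts and medians of gene groups below are set against these shares.

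The size of change that the data leave room for differs between genes. The median standard error of a log2 fold change was 0.32, and the median half-width of its 95% interval was 0.66. In 448 genes (57.1%) the whole interval lay within 1 log2 unit on either side of 0. The estimates themselves lay within 0.5 log2 units of 0 in 631 genes. Above 1 log2 unit there were 3 genes, FARSA, ABTB2 and DICER1, and 22 genes lay below −1. Listed genes had at least 10 counts in both WT libraries, with no such floor in KO. The part of this floor in the imbalance between rises and falls was not tested. Levels are given in CPM, the count scaled by TMM to a fixed total of the listed genes. A change shared by all genes cannot be seen on this scale, and in bulk libraries a different mix of cells and a different level per cell cannot be told apart.

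**Figure D1:**
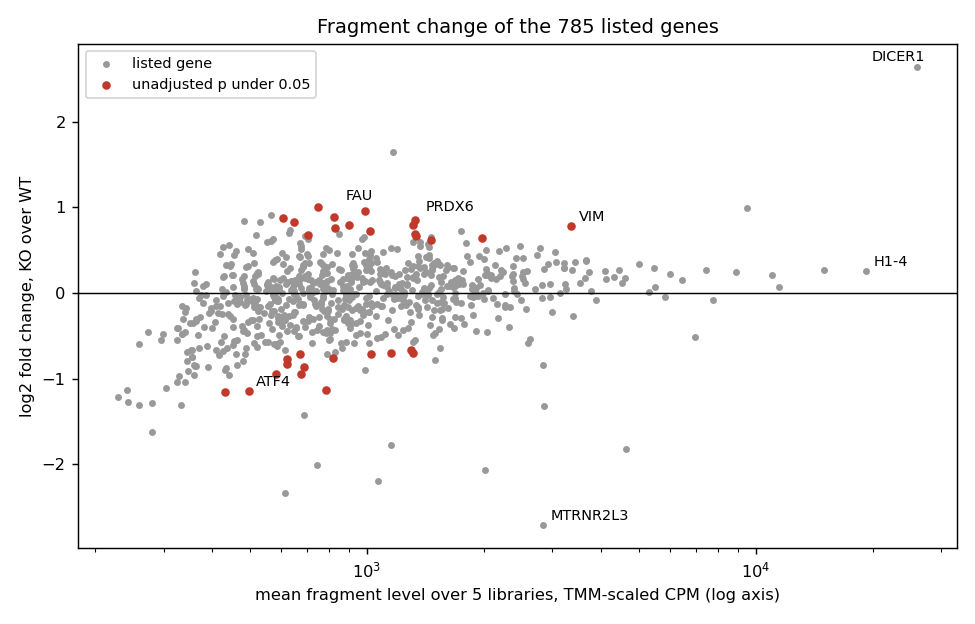
Log2 fold change of fragments, KO over WT, against the mean fragment level over the 5 libraries (TMM-scaled CPM, log axis) for the 785 listed genes, with genes at an unadjusted p under 0.05 in red. The estimates centre on 0.00, and the most extreme, DICER1 at 2.64 and MTRNR2L3 at −2.71, did not have an unadjusted p under 0.05.

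The libraries were shallow and uneven. The listed genes held 124580, 46193 and 58325 counts in KO replicates 1, 2 and 3, against 17665 and 61816 in WT replicates 1 and 2. Every listed gene had at least 10 counts in both WT libraries, whereas 1, 40 and 10 genes had fewer than 10 in KO replicates 1, 2 and 3. In WT replicate 1, 116 genes stood at exactly 10 counts and 520 were under 20, and 10 counts there equal 537 CPM, against 162 CPM in WT replicate 2. Log2 levels correlated across genes at 0.917 between KO replicates 1 and 3 and at 0.648 between the WT libraries. KO replicate 2 correlated at 0.839 and 0.835 with KO replicates 1 and 3. WT replicate 2 correlated at 0.876, 0.851 and 0.858 with KO replicates 1, 2 and 3. The first principal component, with 49.2% of the variance, placed WT replicate 1 at −15.6 and the other libraries between −0.36 and 8.64. The second, with 23.8%, placed KO replicate 2 at 9.90 and the other libraries between −5.42 and 3.62. Of 10 marker genes of the HEK293 line only IRS4 was listed, and 0 of 10 fibroblast and 0 of 10 blood and endothelial markers were, so the cell type was not checked further in this table. PCIF1 is not among the listed genes, and its level was not analysed here.

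VIM, which encodes the intermediate filament protein vimentin, had the smallest p-value of all listed genes. It had 3590, 4194 and 4320 CPM in KO replicates 1, 2 and 3, against 2150 and 2509 CPM in WT replicates 1 and 2. All KO libraries lay above both WT libraries, and the WT libraries lay close to each other. The log2 fold change was 0.78 (SE 0.24, 95% interval 0.28 to 1.29, unadjusted p = 0.00388, adjusted p = 0.915 by edgeR). Its input RNA showed no such gap, with a log2 fold change of 0.01 (SE 0.09).

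ATF4, the transcription factor of the integrated stress response, headed the genes that were lower in KO. Its mRNA carries upstream reading frames that hold back translation of the main frame until initiation factor eIF2 is phosphorylated. Fragments of ATF4 came to 405, 336 and 286 CPM in KO replicates 1, 2 and 3, against 537 and 923 CPM in WT replicates 1 and 2. The groups did not overlap, but the WT values differed widely from each other, and WT replicate 1 stood at 10 counts, the lowest that any WT library holds for a listed gene. The log2 fold change was −1.15 (SE 0.38, 95% interval −1.94 to −0.36, unadjusted p = 0.00618, adjusted p = 0.915 by edgeR). Input RNA of ATF4 differed by 0.06 (SE 0.08) on the log2 scale.

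Another 9 genes followed VIM by p-value among those higher in KO, and in each of them all KO libraries lay above both WT libraries. FAU, which encodes a ubiquitin-like protein fused to a small-subunit ribosomal protein, had 1378, 935 and 1361 CPM in KO, against 645 and 631 CPM in WT (log2 fold change 0.96, SE 0.32). PRDX6, a peroxiredoxin that reduces phospholipid hydroperoxides, had 1713, 1414 and 1698 CPM in KO, against 967 and 842 CPM in WT (0.86, SE 0.30). UQCRC1, a core subunit of respiratory complex III, had 1355, 1821 and 1563 CPM in KO, against 967 and 858 CPM in WT (0.80, SE 0.30). In these 3 genes both WT libraries gave much the same level, though WT replicate 1 held only 12, 18 and 18 counts. FARSA, the catalytic subunit of phenylalanyl-tRNA synthetase, had the highest fold change of the group at 1.0 (SE 0.39). Its WT libraries disagreed, with 810, 791 and 1093 CPM in KO, against 753 and 291 CPM in WT. Of the others, the lipid transfer protein STARD7 had a log2 fold change of 0.89, the corepressor SPEN 0.87 and the glycogen phosphorylase PYGL 0.84. The Raf kinase inhibitor PEBP1 stood at 0.76 and the DNA repair endonuclease APEX1 at 0.73. WT replicate 1 held 10 counts of STARD7, SPEN and PEBP1, the lowest of any WT library, 11 of PYGL and 13 of APEX1.

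A further 9 genes followed ATF4 among those lower in KO, again with no overlap between the groups. CTNNA1, the alpha-catenin of adherens junctions, had 498, 479 and 588 CPM in KO, against 914 and 971 CPM in WT (log2 fold change −0.86, SE 0.30). PSMD12, a lid subunit of the proteasome, had 436, 527 and 336 CPM in KO, against 753 and 874 CPM in WT (−0.95, SE 0.33). VBP1, a subunit of the prefoldin chaperone, had 740, 551 and 639 CPM in KO, against 967 and 1198 CPM in WT (−0.76, SE 0.30). Both WT libraries lay above all KO libraries in these 3, but WT replicate 1 rested on 17, 14 and 18 counts. For VBP1 the nearest values were 967 CPM in WT replicate 1 and 740 CPM in KO replicate 1. The mitochondrial ribosomal protein MRPL13 stood at −0.94, but its WT libraries were apart, with 537, 407 and 471 CPM in KO, against 1236 and 728 CPM in WT. The rest were SPATS2 at −0.83, the microtubule end-binding protein MAPRE1 at −0.77, HSBP1, which binds heat shock factor, at −0.72, the cyclin-dependent kinase subunit CKS2 at −0.70 and the ribonucleotide reductase subunit RRM1 at −0.67. Of these 20 genes none passed the adjusted threshold.

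**Figure D2:**
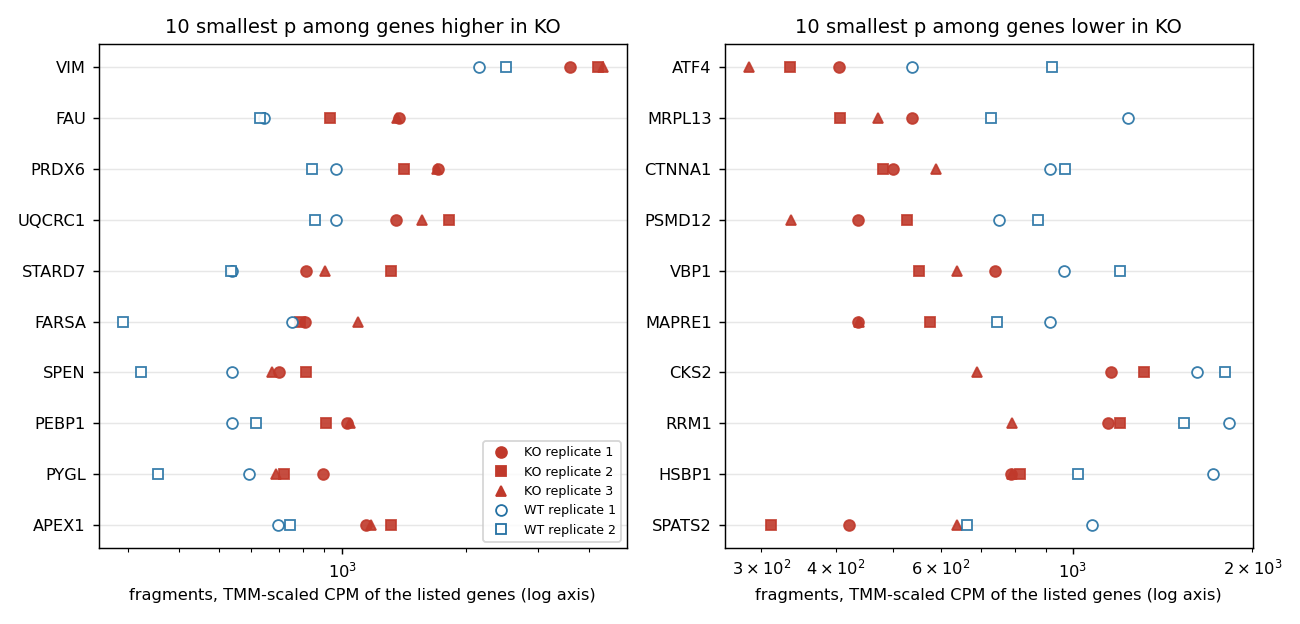
Fragment level in each library (TMM-scaled CPM, log axis) of the 10 genes with the smallest p among those higher in KO (left) and the 10 among those lower in KO (right), with KO replicates as filled red and WT replicates as open blue symbols. Groups do not overlap in any of the 20 genes, and the gap is narrow for FARSA, where WT replicate 1 at 753 CPM lies close to KO replicate 2 at 791 CPM.

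The annotated 5′ ends of 3 of these genes are shown because m6Am can form only where transcription starts with A. The authors' deposited table puts all 3 in its m6Am class. Each sequence is 30 bases of the RefSeq promoter table (GRCh38.p14) on the transcribed strand, with the annotated first base in capitals. ATF4 is read at chr22:39520544-39520573, plus strand, FAU at chr11:65122120-65122149, minus strand, and CTNNA1 at chr5:138753410-138753439, plus strand.
ATF4: gcgggcggccacggcAgccatttctacttt
FAU: cgccctcgcttcttcCtctttctcgactcc
CTNNA1: ggggcggcccatttcCtcctcctagccgga
ATF4 has A at the annotated start, while FAU and CTNNA1 have C there. Of the other leading genes looked up, VIM and VBP1, both in the m6Am class, have G and A at the annotated start. UQCRC1 and PSMD12, both classed A, have G. In both FAU and CTNNA1 the C opens a run of pyrimidines, the arrangement known from mRNAs with a terminal oligopyrimidine (TOP) tract. RefSeq gives 1 start per gene, and over the 354 m6Am-class genes with a sequence in that table the annotated first base was A in 181.

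Leaving out WT replicate 1, the shallow library, changed many estimates but called no gene. With the remaining 4 libraries 0 genes passed, the smallest adjusted p was 0.524, and 51 genes had an unadjusted p under 0.05. The fold changes with and without this library correlated at 0.557 across genes, which share 4 of 5 libraries, and 599 of 785 kept their sign. The 20 leading genes all kept their sign. This was set by their choice, as in each of them every KO library already lay on the same side of WT replicate 2. The estimate moved to −1.39 for ATF4, 1.61 for FARSA, 1.16 for SPEN and 1.13 for PYGL, and lay nearer to 0, at −0.36 for HSBP1 and −0.53 for SPATS2, while MRPL13 stood at −0.60, VIM at 0.68 and FAU at 0.97. Leaving out WT replicate 2 in place of WT replicate 1 moved most of these the other way, to −0.62 for ATF4, 0.25 for FARSA, 0.43 for SPEN, 0.40 for PYGL, −1.11 for HSBP1 and −1.36 for MRPL13, while VIM stood at 0.90 and FAU at 0.94. The estimates of ATF4, FARSA, SPEN, PYGL, HSBP1 and MRPL13 thus depended on which WT library was used. Once KO replicate 2 was left out as well, a choice made after seeing the data, 21 genes were called higher and 15 lower by edgeR, with the spread taken from KO replicates 1 and 3 alone. VIM (0.63, adjusted p = 0.0367) and ATF4 (−1.38, adjusted p = 0.00556) were among them. Against WT replicate 2 alone, all 3 KO libraries were higher in 218 genes and lower in 222.

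The effect of leaving out a WT library differed by level. The 262 genes with the lowest mean CPM had a median log2 fold change of −0.15 with all libraries, 0.07 without WT replicate 1 and −0.47 without WT replicate 2. For the 261 genes in the middle the medians were 0.02, 0.01 and 0.11. The 262 genes with the highest mean CPM had medians of 0.11, −0.00 and 0.38. The medians thus went up with level when WT replicate 1 was in the fit and not when it was left out. The median count of the low genes in WT replicate 1 was 11, next to the lowest count of 10 found in the table, and the part of that limit in the pattern was not tested.

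**Figure D3:**
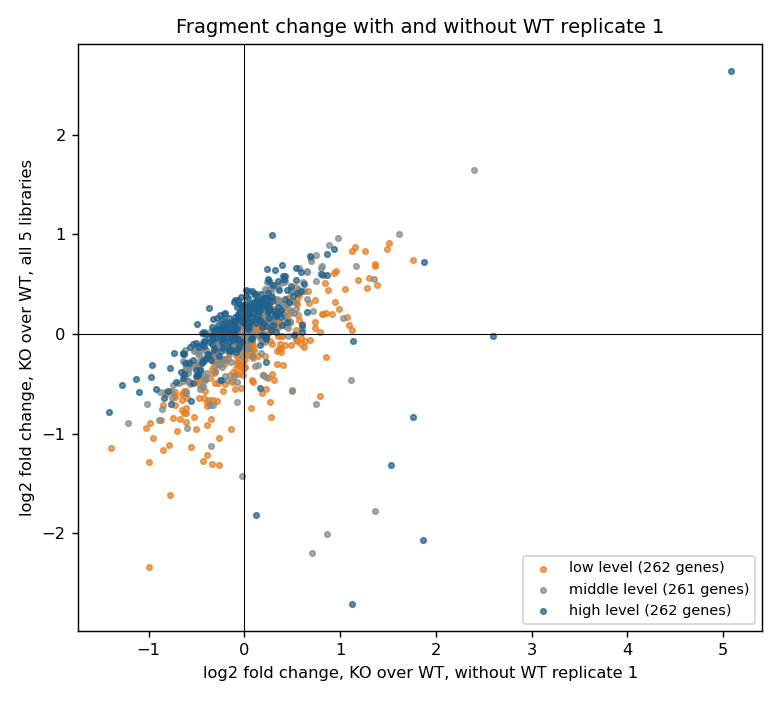
Log2 fold change of fragments, KO over WT, with all 5 libraries (vertical) against the same without WT replicate 1 (horizontal) for the 785 genes, coloured by low, middle and high mean level. Genes of low level spread downward on the vertical axis, with a median of −0.15 with all libraries and 0.07 without WT replicate 1.

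DICER1, the nuclease that cuts microRNA precursors, took 4723 of the 46193 counts of KO replicate 2, which is 10.2% (exact 95% interval 9.95 to 10.5%, counting error only). It had 1853, 113179 and 2454 CPM in KO replicates 1, 2 and 3, against 11556 and 1149 CPM in WT replicates 1 and 2. KO replicate 2 stood 53.1-fold above the median of the other libraries, WT replicate 1 was second, and the groups overlapped. The log2 fold change of 2.64 had an SE of 2.82 and an adjusted p of 0.946 by edgeR. Its input RNA lay between 64.8 and 74.3 CPM of all genes in KO and between 48.8 and 63.9 CPM in WT. Once DICER1 was taken out of the total of KO replicate 2, that library held 41470 counts. With TMM scaling no fold change moved by more than 5e-07 log2 units and 0 genes were called. This outcome was set in advance, because TMM computes its factor anew and offsets a changed total. Without TMM, on totals alone, the median shift was 0.05 log2 units, 38 genes changed sign, and again 0 genes were called.

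Ribosomal protein genes, whose mRNAs are the best-known TOP mRNAs, lay mostly above 0. Of 80 such genes 36 were listed, of which 29 had a fold change above 0, with a median of 0.21 beside 0.00 for all listed genes. Their KO libraries lay above both WT libraries in 10 of the 36 genes and below both in 1, RPS13 at −0.26, and no gene was called. Over all listed genes these shares were 10.6% and 10.4%. The 262 genes of highest level, which include many but not all of the 36, had a median of 0.11. That median was −0.00 without WT replicate 1 and 0.38 without WT replicate 2. For the 36 genes the median without WT replicate 1 was 0.17, and 28 were above 0. Over all alternative settings their median lay between 0.10 and 0.26. Of the listed counts the 36 genes together held 7.10%, 5.85% and 7.17% in KO replicates 1, 2 and 3. In WT replicates 1 and 2 they held 5.86% and 6.06%. With DICER1 left out of every total the shares were 7.11%, 6.52% and 7.19% in KO, against 5.94% and 6.07% in WT, and the groups no longer overlapped. The input RNA of the same genes was higher in KO in 34 of 36, with a median of 0.14 beside 0.03 for all listed genes, so the RNA leaned the same way. Many ribosomal proteins have processed pseudogenes, and how reads shared with them were counted is not given in the sources used here.

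Within the ribosome the small subunit had a median of 0.25 over 14 listed genes and the large subunit 0.20 over 22. RPLP1 and RPLP2, the acidic stalk proteins that recruit elongation factors, stood at log2 fold changes of 0.60 (SE 0.30) and 0.55 (SE 0.28). Without WT replicate 1 they stood at 0.86 and 0.25, and without WT replicate 2 at 0.28 and 1.02. For RPLP1 the levels were 1472, 1462 and 1563 CPM in KO, against 1236 and 825 CPM in WT. The KO values of RPLP1 were tight and lay above both WT values, and none of these genes passed the adjusted threshold. With WT replicate 1 left out, the large-subunit median stayed at 0.20 and the small-subunit median was 0.12.

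RPL35, a large-subunit protein with a log2 fold change of 0.20, shows the TOP arrangement at its annotated start. The 30 bases are from RefSeq (GRCh38.p14, chr9:124861943-124861972, minus strand), with the first base in capitals.
RPL35: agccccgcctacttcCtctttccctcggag
As in FAU and CTNNA1, the annotated first base is C, and pyrimidines follow. The authors' deposited table places RPL35, too, in the m6Am class.

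Other TOP mRNAs did not share 1 direction. Of 20 in the list, which holds elongation factors, VIM and others, 8 were listed, 4 on each side of 0, with a median of −0.15 that ran from −0.20 to 0.16 over the alternatives. VIM, at 0.78, was the highest of the 4 above 0. Its annotated first base is G, unlike the C of FAU, CTNNA1 and RPL35. TPT1, the translationally controlled tumour protein, had 771, 719 and 975 CPM in KO, against 591 and 469 CPM in WT (log2 fold change 0.68, SE 0.33). The translocase EEF2 stood at 0.21 (0.03 without WT replicate 1), and the poly(A)-binding protein PABPC1 at −0.49. NACA, a subunit of the complex that binds nascent chains, had the lowest estimate of the list. It had 2118, 2564 and 2168 CPM in KO replicates 1, 2 and 3, against 14243 and 2088 CPM in WT replicates 1 and 2. Only WT replicate 1 was high, and the log2 fold change of −1.82 (SE 0.94) became 0.12 without that library.

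The other groups of the translation and folding machinery had medians that depended on the WT library. Initiation factors had a median of 0.03 over 14 listed genes, −0.05 without WT replicate 1 and 0.29 without WT replicate 2, with the scaffold protein EIF4G1 at 0.50 and EIF1, which takes part in start codon choice, at −0.47. Aminoacyl-tRNA synthetases had a median of −0.01 over 11 listed genes, and 5 of them were above 0. All 8 subunits of the chaperonin CCT were listed, with a median of 0.14 that became −0.12 without WT replicate 1 and 0.54 without WT replicate 2. CCT5 was the highest of them, with 2305, 2732 and 1950 CPM in KO, against 1021 and 1861 CPM in WT (log2 fold change 0.64, SE 0.31). KO replicate 3 and WT replicate 2 lay close together, and the estimate was 0.32 without WT replicate 1 and 1.18 without WT replicate 2. Cytosolic chaperones and heat shock proteins had a median of 0.04 over 11 listed genes, −0.22 without WT replicate 1 and 0.42 without WT replicate 2.

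Chaperones of the endoplasmic reticulum and proteasome subunits had medians below 0. Of 7 listed endoplasmic reticulum chaperones 3 were above 0, with a median of −0.20, −0.23 without WT replicate 1 and −0.05 without KO replicate 2. HSP90B1, the endoplasmic reticulum member of the HSP90 family, had 1573, 1725 and 1748 CPM in KO, against 1881 and 2622 CPM in WT (log2 fold change −0.44, SE 0.28, and −0.17 without WT replicate 2). HSPA5, the HSP70 of the same compartment, stood at −0.36 (SE 0.29), also with no overlap between KO and WT. Among 19 listed proteasome subunits 7 were above 0, with a median of −0.09 that ran from −0.22 without WT replicate 1 to 0.05 over the alternatives. After PSMD12 the lowest was PSMD11, another lid subunit, at −0.55 (SE 0.31), while the catalytic subunit PSMB5 stood at 0.46 (0.29 without WT replicate 1).

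In energy metabolism all 5 listed glycolysis enzymes were above 0, with a median of 0.25. Without WT replicate 1 the median was 0.14 and 4 were above 0, with LDHB at −0.07. All 5 are among the 262 genes of highest level, whose median was 0.11 with all libraries. TPI1, triosephosphate isomerase, had 1394, 1486 and 1866 CPM in KO, against 860 and 1084 CPM in WT (log2 fold change 0.67, SE 0.30). Of 23 listed nuclear genes of oxidative phosphorylation 16 were above 0, with a median of 0.19 and 0.13 without WT replicate 1. UQCRC1 at 0.80 was the highest of them. The lowest was NDUFA2, a small subunit of complex I, with 265, 144 and 286 CPM in KO, against 537 and 469 CPM in WT (−1.04, SE 0.60). The citric acid cycle list had 2 members among the 765 named genes, MDH1 at −0.48 and IDH3B at −0.01. The 20 unnamed genes could not be searched for further members. Lipid synthesis had 5, with the desaturase SCD at 0.18 (−0.07 without WT replicate 1) and the acetyl-CoA producer ACLY at −0.40.

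Genes of the nucleus were split. Of 14 listed core spliceosome genes 11 were above 0, with a median of 0.20 and 0.11 without WT replicate 1. SNRNP200, the helicase that unwinds U4 from U6, had 1542, 1701 and 1496 CPM in KO, against 914 and 1182 CPM in WT (log2 fold change 0.56, SE 0.29). The Sm protein SNRPD2 stood at 0.65 (SE 0.34) with all libraries and at 0.24 without WT replicate 1, or 1.55 without WT replicate 2. The hnRNP and SR proteins, which bind pre-mRNA, had a median of −0.04 over 23 listed genes. At the ends of that list were SRSF9 at 0.63 (0.16 without WT replicate 2) and HNRNPK at −0.38 (−0.66 without WT replicate 1). Of 8 listed nucleolar genes of ribosome biogenesis 1 was above 0, with a median of −0.06, and without WT replicate 1 that count was 4.

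The genes of the cell cycle had members on both sides of 0. The MCM helicase and replication genes had a median of 0.16 over 13 listed genes, 9 of them above 0. The subunits MCM2 to MCM7 were all above 0, with 0.12 for MCM2 and 0.40 for MCM4 at the ends, while RRM1 and RPA1, which binds single-stranded DNA, stood at −0.67 and −0.47. DUT, which removes dUTP, stood at −0.57 (SE 0.67) with all libraries and at 0.50 without WT replicate 1. MCM2 stood at 0.45 and MCM4 at 0.17 without that library. Mitotic genes had a median of −0.02 over 15, with the checkpoint protein BUB3 at 0.66 and the kinase CDK1 at −0.58 (−0.21 without WT replicate 2). The input RNA of CDK1 had the opposite sign, at 0.58 (SE 0.20, adjusted p = 0.488 by edgeR). Actin and tubulin genes had a median of 0.15 over 7.

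Histone mRNAs, which end in a stem-loop and lack a poly(A) tail, gave 24 listed genes of 48. Of these 14 were above 0, with a median of 0.06 and −0.03 without WT replicate 1. They held 10.5%, 9.99% and 11.3% of the listed counts in KO replicates 1, 2 and 3, against 9.28% and 10.8% in WT replicates 1 and 2. With DICER1 left out of every total the shares were 10.6%, 11.1% and 11.3% in KO, against 9.40% and 10.8% in WT. The linker histone H1-4 had 2588, 853 and 1259 counts in KO, against 286 and 1182 in WT, and a log2 fold change of 0.25 (SE 0.17), or 0.11 without WT replicate 1. Its SE was among the small ones, as its counts were high. Values of single histone genes are uncertain, because near-identical copies can share reads.

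Genes of the stress response and of RNA control were few in the table. The integrated stress response list had 4 listed genes, ATF4, the folate enzyme SHMT2 at 0.33, the amino acid transporter SLC7A5 at 0.14 and the eIF2 kinase EIF2AK2 at −0.59. EIF2AK2 had 33, 8 and 8 counts in KO, against 10 and 11 in WT, and stood at 0.19 without WT replicate 1. From the microRNA pathway the exporter XPO5 was at 0.64 (SE 0.33) and TNRC6B, the silencing scaffold, at −1.13 (SE 0.93), or −0.55 without WT replicate 1. UPF1, the helicase of nonsense-mediated decay, was at 0.68 (SE 0.36), or 1.17 without WT replicate 1, and CNOT1, the scaffold of the CCR4-NOT deadenylase, at 0.21. IGF2BP1, an m6A-binding protein, was the only listed gene of 22 enzymes and readers of m6A and m6Am, at −0.25 (SE 0.29). KMT2A, a histone H3 methyltransferase, had 195, 455 and 219 CPM in KO, against 806 and 486 CPM in WT (log2 fold change −1.16, SE 0.54). Of 14 interferon-stimulated genes 0 were listed.

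**Figure D4:**
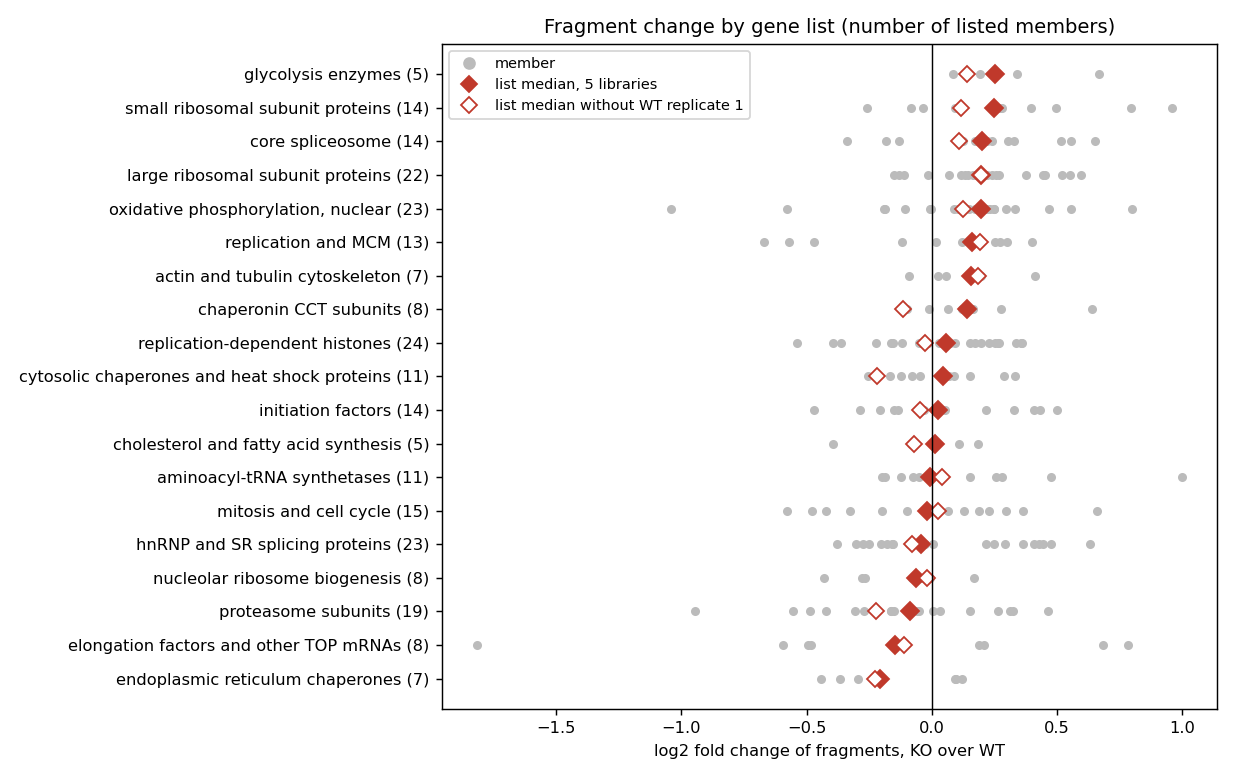
Log2 fold change of fragments, KO over WT, for the members (grey) of the gene lists with at least 5 listed genes, with the list median over all 5 libraries (filled) and without WT replicate 1 (open). Medians run from 0.25 for glycolysis to −0.20 for endoplasmic reticulum chaperones, and the medians of CCT, heat shock proteins, histones, initiation factors, tRNA synthetases, mitosis and lipid synthesis are on the other side of 0 without WT replicate 1.

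The class of transcript start, as the authors' deposited table names it, bears on the genes that PCIF1 could act on. The m6Am class held 416 listed genes, of which 229 were above 0, with a median log2 fold change of 0.06. The 349 genes classed A, C, G or T had 157 above 0 and a median of −0.05. With a filter on a mean of at least 50 counts the m6Am median was −0.00, and with limma voom that of the other classes was 0.01. Without WT replicate 1 the medians were 0.03 in both, so no gap between m6Am genes and the others was left at 2 decimals. In the 5-library comparison 52 of the 416 m6Am genes lay wholly above WT and 45 wholly below, beside 31 and 33 of the 349 others. Over all 785 genes the shares were 10.6% above and 10.4% below. The m6Am genes held 54.6%, 48.1% and 53.7% of the listed counts in KO, against 49.7% and 53.5% in WT, and with DICER1 left out of every total 54.7%, 53.6% and 53.8% in KO, against 50.3% and 53.6% in WT. Among the other classes the medians were −0.02 for 201 A genes, −0.13 for 52 C genes, −0.15 for 50 G genes and −0.05 for 46 T genes. The same medians without WT replicate 1 were 0.04, 0.05, −0.06 and 0.02. For minus-strand genes whose deposited window is 161 bases wide, these letters name the base of the opposite strand at the window's centre (46 of 46 genes with sequence). For windows of 160 bases the letter was at the centre on the transcript in 14 of 47 minus-strand genes and on the opposite strand in 12, so their letters could not be checked.

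The matched input RNA varied far less than the fragments, but its libraries were far deeper. They held 4511687 to 5960674 counts over all genes, against 17665 to 124580 counts of the listed genes in the fragment libraries. The part of depth in the spreads and correlation below was not tested. For the 785 genes, 0 (0.0%) were called in the input, the smallest adjusted p was 0.379, and 52 genes (6.62%) higher and 29 (3.69%) lower in KO had p under 0.05 before adjustment. The median SE was 0.11, and the log2 fold changes had an SD of 0.18 across genes, beside 0.46 for the fragments. Fragment and input fold changes correlated at 0.042 across genes, and 411 of 785 had the same sign. All 10 libraries were also put in 1 model, which did not use the match of each fragment library to its input. There, 0 genes (0.0%) had a fragment change that differed from the RNA change at an adjusted p under 0.05. At an unadjusted p under 0.05, 33 (4.2%) were higher and 23 (2.93%) lower. The smallest unadjusted p-values of that difference belonged to ATF4, at −1.20 (SE 0.28, adjusted p = 0.457 by edgeR), and VIM, at 0.79 (SE 0.20, adjusted p = 0.457). The authors' deposited table lists the same 2 genes as the only ones of 765 with an adjusted p under 0.05, ATF4 with a log2 change in efficiency of −1.24 (adjusted p = 0.0225) and VIM with 0.73 (adjusted p = 0.0452).

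Some genes differed widely between libraries of the same genotype. The SD of log2 CPM over the 5 libraries had a median of 0.352 in the fragments and was above 1 in 31 genes. For all listed genes in the far deeper input libraries the median was 0.132. After DICER1 the most variable was ADAMTSL5, with 341, 3 and 211 counts in KO replicates 1, 2 and 3, against 135 and 39 in WT replicates 1 and 2. MTRNR2L3, a nuclear gene that closely resembles mitochondrial ribosomal RNA, had 137, 12 and 70 counts in KO, against 210 and 25 in WT, so reads from that RNA may not be told apart from its own. WDR24, a subunit of the GATOR2 complex upstream of mTORC1, had 203, 11 and 129 counts in KO, against 55 and 14 in WT. In all 3 the lowest levels were those of KO replicate 2 and WT replicate 2, which was so in 6 of the 12 most variable genes and in 106 of all 785. ADAMTSL5 and MTRNR2L3 had at most 5.14 and 2.88 CPM of all genes in any input library.

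**Figure D5:**
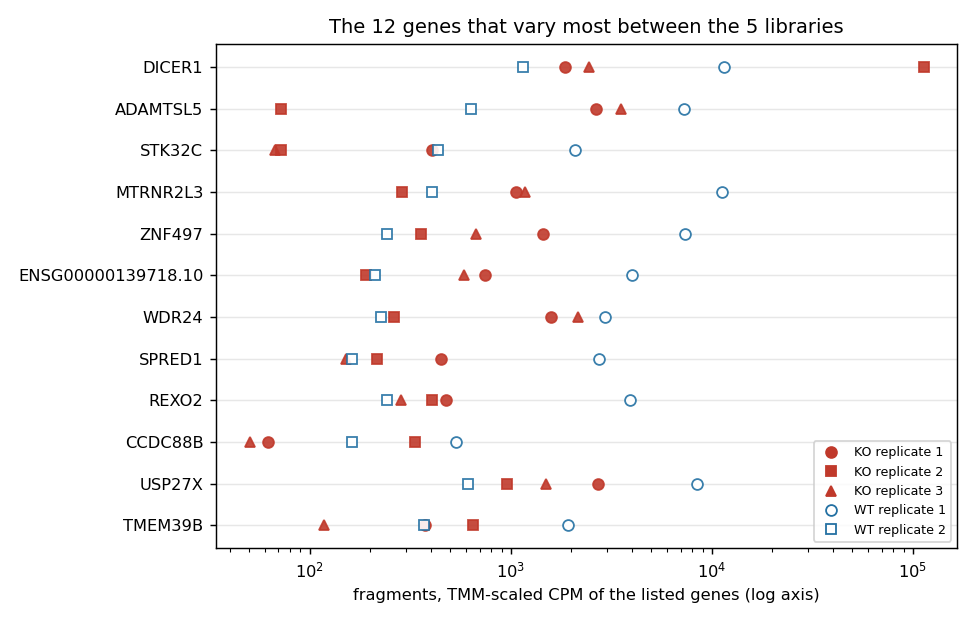
Fragment level in each library (TMM-scaled CPM, log axis) of the 12 genes whose log2 level varied most over the 5 libraries, with KO replicates as filled red and WT replicates as open blue symbols. DICER1 reaches 113179 CPM in KO replicate 2, and WT replicate 1 is the highest library for all of the others.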

How the data were processed

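The authors deposited raw counts of reads for each Ensembl gene, with a column for every library, for the fragments (785 genes) and for the input RNA (58381 genes), per the file headers. What removed the other genes from the fragment table is not stated in the labels or headers. The authors' deposited efficiency table holds log2 fold changes, their errors and adjusted p-values under column names used by DESeq2, per the file headers. Per the submitters' processing notes, BWA 0.7.17, STAR, bedtools and deepTools were used, with no roles given. Per the labels' protocols, RNA was selected for poly(A) tails, the fragment libraries followed the miCLIP cloning protocol and the input libraries a directional kit.

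All columns were matched to samples by title. Of the 785 identifiers 765 were named through the efficiency table, 763 of them also matched by accession in the RefSeq gene table, and 20 stayed unnamed. The unnamed genes could not be placed in any gene list, so counts of listed members cover named genes only. KO was tested against WT with edgeR 4.0.16 in R 4.3.3 (TMM, robust quasi-likelihood F test, two-sided, Benjamini-Hochberg over all listed genes, threshold 0.05), without a further filter. Input RNA was tested over 14629 genes after filterByExpr, and fragments over input as the interaction of library kind and genotype. Log2 levels used a prior count of 2. The main test was also run on simulated counts. These had the same spread for all genes, no floor of 10 counts in WT and no peaks in single libraries, so the run does not cover those features. Alternatives used DESeq2 1.42.0, limma 3.58.1, other scaling, a mean of at least 50 counts, DICER1 left out, and each library left out. Replicate numbers are shared by 2 pairs only, whose deviations correlated at 0.195 and 0.209, and were not taken as pairing. KO replicate 1 with WT replicate 2 and KO replicate 2 with WT replicate 1 gave −0.195 and −0.209. With 2 WT libraries such values mirror the first by construction, so these correlations cannot settle whether replicates were paired. As a check for a library deposited more than once, counts were compared between pairs of libraries (chi-square over degrees of freedom 3.65 or more), and no such pair was seen. Figures were drawn with matplotlib 3.10.9.

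The genes, the 30 gene lists and the tests were chosen with earlier results of these data known, so lists carry counts and medians and no test. Named are the 10 genes with the smallest p in each direction, the 2 smallest p in each list with 5 or more listed genes, the 5 highest mean levels, the gene farthest above the others in each library, and DICER1, ATF4 and VIM. ABTB2, NACA, the other list members at the ends of a list and the most variable genes were chosen after their values were seen. Some items that the naming rule gives are not reported here.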

Additional observations from a re-analysis of the deposited data

How the results depend on the processing

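The count of 0 called genes held with DESeq2 size factors, upper quartile factors, library totals, the DESeq2 test and limma voom with quality weights. It also held with a mean of at least 50 counts (421 genes) and all ways of leaving out DICER1. In these settings 18 to 43 genes had an unadjusted p under 0.05. Taking DICER1 out of the total of KO replicate 2 under TMM could not differ from the main test. RPF genes called, KO against WT, numbered 0 to 3 when 1 library was left out: STK32C (lower) without KO replicate 1, ABTB2 (higher) without KO replicate 3, and NACA, REXO2 and SPRED1 (lower) without WT replicate 2. With the replicate number as a block 6 genes were called, 1 higher and 5 lower, among them MTRNR2L3 at −2.44. When WT replicate 1 and KO replicate 2 were both left out, a choice made after seeing the data, RPF genes called, KO against WT, numbered 36, of which 21 were higher and 15 lower, with the lone WT library assumed to vary like the KO libraries. VIM (0.63), PRDX6 (0.999), FAU (1.10), FARSA (1.66), ATF4 (−1.38), PSMD12 (−1.16) and CKS2 (−0.94) were among them. For fragments over input, KO against WT, and for input RNA of the listed genes, KO against WT, the counts were 0 to 14 and 0 to 195 when 1 library was left out, with the 14 and the 195 both without WT replicate 2, and 0 with the block. The causes of these differences were not tested.

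Of 960 values of the 61 named genes under other settings 22 had the opposite sign, in 11 genes. Leaving out 1 library at a time gave log2 fold changes of −1.05 to 0.168 for H2BC5, −3.68 to 1.12 for MTRNR2L3, −0.0678 to 0.971 for LDHB, −0.0788 to 0.730 for H1-2, −0.740 to 0.224 for NOLC1, −0.0723 to 0.655 for SCD, −1.10 to 2.60 for WDR24, −1.53 to 5.09 for DICER1, −0.357 to 1.88 for ALDH7A1 and −1.29 to 1.30 for the gene with the identifier ENSG00000198786.2. The sign turned without WT replicate 1 in the first 7, without KO replicate 2 in DICER1 and WDR24, without KO replicate 1 or WT replicate 2 in ALDH7A1, and without WT replicate 2 in ENSG00000198786.2. With both libraries left out the values were 0.206 for H2BC5, 1.44 for MTRNR2L3, −0.158 for LDHB, −0.147 for H1-2, 0.0873 for NOLC1, −0.0925 for SCD and 3.01 for WDR24. WDR24 stood at 1.40 with voom, ENSG00000198786.2 at 0.228 with the block and H3C2 at −0.0713 with the filter of 50 counts.

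The median log2 fold change, m6Am start, was 0.0078 on library totals, 0.0211 with upper quartile factors, −0.0025 with the filter and 0.0073 with both libraries left out, and 0.0304 to 0.105 when 1 was left out. The median log2 fold change, all other classes than m6Am, was −0.0861 with DESeq2, −0.111 on library totals and with upper quartile factors, 0.0059 with voom and 0.0075 with both libraries left out, and −0.153 to 0.0265 when 1 was left out. Of 304 list medians 40 moved by more than 1 SD over KO libraries. Depth limits every estimate: a gene had a median of 15 counts in WT replicate 1.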

Other observations

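The A, C, G and T classes of the authors' deposited table could be set against the sequence for genes whose deposited window is 161 bases wide. On the plus strand, the class letter was the base of the transcript at the centre of the window in 64 of 64 genes. On the minus strand it was so in 0 of 46, and the letter was found on the opposite strand in 46 of 46. In these windows the letters of minus-strand genes thus name the base of the genome's plus strand. In windows of 160 bases the letter was on the transcript at the centre in 19 of 56 plus-strand and 14 of 47 minus-strand genes, and on the opposite strand in 15 and 12, so those letters could not be checked in this way. The sequences below are RefSeq promoter bases (GRCh38.p14) on the transcribed minus strand, with the window's centre in capitals, and they show the mismatch for genes classed T, C, C and G. H4C2 is read at chr6:26027238-26027267, TKT at chr3:53256100-53256129, MCM3 at chr6:52284867-52284896 and CCT3 at chr1:156338401-156338430.
H4C2: gtcagctggttagacAtgtctggtcgcggc
TKT: ctgaaggcctggggtGatccgagccccgcc
MCM3: cgcagcggaaaacccGaagaagaagaagct
CCT3: tcgtgcgctctctgtCtaacttgtctggcc
Read on the transcript, the 90 listed minus-strand genes with 161-base windows change class and all others keep theirs, 39 of the 90 from T to A, 31 from C to G, 13 from G to C and 7 from A to T. The median log2 fold changes of fragments, KO over WT, then become −0.02 for 233 A genes, −0.03 for 34 C genes, −0.22 for 68 G genes and −0.03 for 14 T genes. Leaving out WT replicate 1 gives 0.03, 0.08, −0.07 and 0.49. The m6Am class was kept as deposited in both readings.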
